A study of Mus musculus with 96 samples.

Results

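The enzymes that make bile acids from cholesterol and join them to taurine or glycine were followed in mouse liver over 2 days, in mice that lack Rbbp5 in hepatocytes and in littermates that keep it. The 10 genes were chosen by symbol: Cyp7a1, Cyp8b1, Cyp27a1, Cyp7b1, Cyp39a1, Hsd3b7, Akr1d1, Amacr, Slc27a5 and Baat. All 10 were found among the 13094 entries of the expression table, and all 10 were among the 9901 entries that averaged 1 FPKM or more and were tested. FPKM counts the RNA fragments of a gene per length of its transcript and per number of fragments mapped in the library, so that levels of different genes can be set side by side.

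Bile acid synthesis has a classic and an alternative route. The classic route opens in the endoplasmic reticulum with CYP7A1, the rate-limiting 7-alpha-hydroxylase of cholesterol, whereas the alternative route opens in mitochondria with CYP27A1 and continues with CYP7B1. CYP8B1 adds the 12-alpha-hydroxyl group that makes cholic acid, and liver Cyp7a1 is a textbook example of a gene with a daily rhythm that bile acids repress through FXR, SHP and intestinal FGF15.

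RNA was sequenced from the whole livers of 96 mice, males on the C57BL/6J background between 3 and 4 months old, 1 library each. The 48 LKO mice were Rbbp5 flox/flox and Alb-Cre +/-, so that an albumin promoter, active in hepatocytes, drove Cre, and the 48 Flox littermates were Rbbp5 flox/flox without Cre. Both groups therefore carry the floxed alleles, and the Flox mice are no test of Cre itself. After 2 weeks of 12 h light and 12 h darkness and then 24 h of constant darkness, livers were taken in constant darkness every 2 h for 48 h, with food always present. Circadian time (CT) 0 to 22 is the first day and CT24 to 46 the second, and each genotype has 2 mice at each of 24 time points. RBBP5 belongs to the core of the H3K4 methyltransferase complexes, and the series asks what it does for the 12 h oscillator of the liver.

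The targeted gene checked the labels only in part. Rbbp5 (ENSMUSG00000026439.14, mm10 chromosome 1, 132477365 to 132505659, plus strand) ranged from 1.61 FPKM over a median of 2.23 to 4.23 in LKO and from 1.55 over 3.39 to 4.32 in Flox (log2 fold change -0.32, SE 0.05, adjusted p = 2.43e-07, limma). These values cover the whole gene and all liver cells, and the sources used here do not name the deleted segment. At CT42 to CT46 Rbbp5 went against the label, at 3.79 ± 0.399 FPKM in the libraries labelled LKO and 2.71 ± 0.718 in Flox (SD, n = 6 each). It was not called at CT0 to CT4, at 3.25 ± 0.701 FPKM in LKO and 3.52 ± 0.846 in Flox (SD, n = 6 each, log2 fold change -0.08, adjusted p = 0.527, limma), and it was lower in LKO in the 6 windows between. In the 6 libraries labelled LKO at CT42 to CT46, libraries 5 alveolar macrophage markers found in the table of 11 listed (Ear2, Marco, Itgax, Lpl and Plet1) summed to between 994 and 2031 FPKM, against 4.22 to 18.7 in Flox. Their 8 hepatocyte markers summed to between 17732 and 26787 FPKM, against 22706 to 38711 in Flox, and 6 of 7 cholangiocyte markers summed to between 240 and 940 FPKM, against 19.1 to 33.8. None of these markers was listed at 0. Because of this, several results that rest on the libraries labelled LKO at CT42 to CT46 are also given without them. The ranges over all libraries, the counts of libraries below a Flox value and the second-day ratio of Cyp7a1 to Cyp7b1 include them.

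Across all time points 9 of the 10 enzymes were lower in LKO liver and Cyp7a1 did not pass the test. Per gene the test was limma on log2(FPKM + 1) with the time point as a factor, and a gene was called at an adjusted p under 0.05. None of the 10 was called higher. Of all tested entries 19.1% were called lower and 39.4% higher, and the median log2 fold change was -0.44 over the 10 enzymes and 0.07 over all entries. In counts, 1896 entries were lower and 3897 higher, but 3540 were lower (35.8%) and 2779 higher (28.1%) after median-ratio scaling, and the enzymes called lower were again 9. Without the libraries labelled LKO at CT42 to CT46, 9 enzymes were again lower and none higher. Of all 9901 entries 2970 were then lower and 3140 higher. In bulk liver fewer cells of a type and less RNA per cell cannot be told apart, and the part that the marker differences have in these values was not tested.

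**Figure D1:**
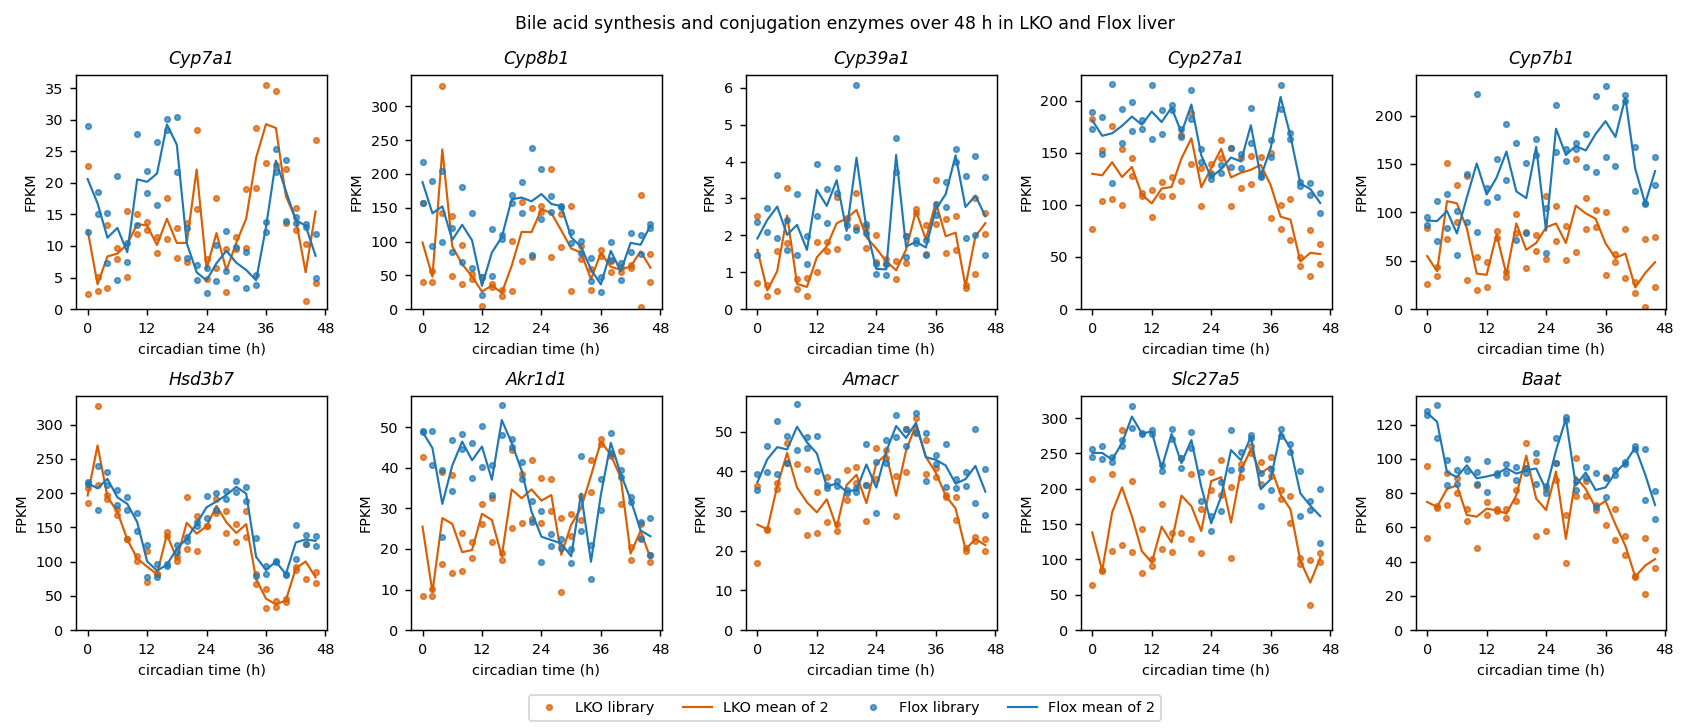
FPKM of each enzyme (vertical axis, from 0) against circadian time in h (horizontal axis), with LKO libraries in orange and Flox libraries in blue, and lines through the mean of the 2 libraries of a time point. Cyp7b1 lies lower in LKO at 21 of 24 time points, while the Cyp7a1 lines cross, with LKO lower at 12 time points and higher at 12.

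Cyp7a1, the gate of the classic route (ENSMUSG00000028240.2, chromosome 4, 6265612 to 6275633, minus strand), passed the overall test in neither direction. It ranged from 1.34 FPKM over a median of 12.2 to 35.5 in LKO libraries and from 2.53 over 12.9 to 30.4 in Flox libraries. The groups overlapped over nearly all of their ranges. The log2 difference was -0.08 (SE 0.16, adjusted p = 0.707), with LKO lower at 12 time points and higher at 12.

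The window values of Cyp7a1 went in opposite directions at different times, and both calls depended on the setting. At CT0 to CT4 Cyp7a1 fell to 2.38, 4.15 and 22.6 FPKM (lowest, median and highest of 6 LKO libraries), against 7.33, 15.2 and 29.0 FPKM in Flox. On the log2 scale the difference was -1.20 (SE 0.41, adjusted p = 0.0119). It was -0.71 with the ribosomal RNA precursor Rn45s as a covariate (adjusted p = 0.158). With 1 genotype term per window it was -0.42 without the libraries of letter A (adjusted p = 0.651). At CT30 to CT34 Cyp7a1 was higher, at 9.58 and 11.4 FPKM in the LKO mice of CT30, 19.0 and 9.65 at CT32 and 19.2 and 28.8 at CT34. The Flox mice had 4.88 and 9.82 FPKM at CT30, 9.06 and 3.31 at CT32 and 3.75 and 5.38 at CT34. Of the 12 libraries a single Flox one, with 9.82 FPKM, reached into the LKO range. The log2 difference there was 1.28 (SE 0.41), and the adjusted p of 0.0496 lay at the threshold. It was 0.0504 with a pseudocount of 0.1, 0.0568 with 1 genotype term per window, 0.0602 with median-ratio scaling and 0.0773 with quantile normalization. With 1 genotype term per window it was 0.306 without letter A (log2 difference 1.24) and 0.402 without letter B (1.31). In the other 6 windows Cyp7a1 was not called, with log2 fold changes between -0.86 and 0.43. At CT42 to CT46, however, its -0.34 became -0.99 with median-ratio scaling (adjusted p = 0.0187) and -0.97 with quantile normalization (adjusted p = 0.0236), both called lower, and 0.0411 without the library of CT44 with letter B.

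Cyp8b1, which directs the classic route to cholic acid (ENSMUSG00000050445.4, chromosome 9, 121914356 to 121916305, minus strand), was lower in LKO. Its levels ran from 2.37 FPKM over 67.7 to 330.8 in LKO and from 20.7 over 110 to 238 in Flox. The LKO range thus reached past the Flox range at both ends. LKO over Flox was -0.67 on the log2 scale (SE 0.17, adjusted p = 7.67e-04), with LKO lower at 21 of 24 time points. By window it fell at CT12 to CT16, where LKO libraries held 4.33, 30.6 and 47.3 FPKM (lowest, median, highest) and Flox libraries 20.7, 75.8 and 119. At those times the log2 difference was -1.41 (SE 0.53, adjusted p = 0.029). At CT42 to CT46 the log2 fold change of the libraries labelled LKO was -1.23 (adjusted p = 0.0336). There it rested on 1 library, CT44 with letter B at 2.37 FPKM, and was -0.29 (adjusted p = 0.58) without it.

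The Cyp8b1 promoter is shown because this gene had one of the clearest daily rhythms of the route and because its sequence holds letters of nuclear receptor motifs. RefSeq entries were found for 4 of the 10 genes (Cyp8b1, Cyp27a1, Hsd3b7 and Akr1d1), and the 250 bases before the start of transcription were searched on both strands. The motifs were chosen after the sequences had been read. They were the HNF4 core CAAAGTCCA, held by 0.384% of all 32851 promoters of that length, and CAAGGNCA, bound by monomeric receptors such as NR5A2 (5.53%). The other motifs were the D-box TTANGTAA (2.06%), the E-box CACGTG (6.02%) and the ROR element TAGGTCA (2.23%). Cyp8b1 held CAAAGTCCA from 67 to 59 bases and CAAGGNCA from 60 to 53 bases before the start, so that they overlap, and no other match was found in the 4 promoters. The sequence is from GRCm38.p6, chr9:121916306-121916555, minus strand, 5′ to 3′, with both matches in capitals.
Cyp8b1: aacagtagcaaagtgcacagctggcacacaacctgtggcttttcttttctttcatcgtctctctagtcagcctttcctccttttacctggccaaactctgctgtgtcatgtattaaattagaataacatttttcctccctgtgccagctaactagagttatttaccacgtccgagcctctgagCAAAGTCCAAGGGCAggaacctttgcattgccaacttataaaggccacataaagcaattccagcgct
HNF4A and NR5A2 are known activators of bile acid synthesis genes. Hnf4a averaged 86.0 ± 24.3 FPKM in LKO and 113 ± 22.6 in Flox (SD, n = 48 each), and Nr5a2 averaged 3.85 ± 2.11 and 5.76 ± 2.48 FPKM. Both were lower in LKO, with log2 fold changes of -0.42 (SE 0.07, adjusted p = 2.32e-07) and -0.50 (SE 0.10, adjusted p = 3.43e-05, limma). A match of letters is a description of the sequence, and binding was not measured.

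Cyp7b1, the oxysterol 7-alpha-hydroxylase of the alternative route (ENSMUSG00000039519.6, chromosome 3, 18071950 to 18243338, minus strand), had the largest genotype difference of the 10 enzymes. LKO libraries ran from 2.23 FPKM over a median of 71.0 to 155 and Flox libraries from 55.5 over 144 to 231. Of the 48 LKO libraries 46 lay below the Flox median, and 20 lay below the lowest Flox library. The log2 difference was -1.21 (SE 0.16, adjusted p = 1.03e-09). All 8 windows had a negative value, from -0.69 to -2.43, and 3 of them were called. At CT12 to CT16 every LKO library (22.4 to 80.9 FPKM) lay below every Flox library (111 to 192), with a log2 difference of -1.58 (SE 0.42, adjusted p = 0.00338). At CT36 to CT40 the groups were again apart, at 31.9 to 100.3 FPKM in LKO and 147 to 231 in Flox (-1.81, SE 0.42, adjusted p = 6.03e-04).

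The largest Cyp7b1 difference was in the last window. The libraries labelled LKO held 27.8 and 16.8 FPKM at CT42, 72.1 and 2.23 at CT44 and 74.6 and 22.3 at CT46. Flox libraries held 168 and 122 FPKM at CT42, 109 and 109.9 at CT44 and 128 and 157 at CT46. All 6 lay below all 6 Flox libraries. On the log2 scale the difference was -2.43 (SE 0.42, adjusted p = 1.57e-06), and it was -1.68 (adjusted p = 6.98e-05) without the library of CT44 with letter B.

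Cyp27a1, the mitochondrial sterol 27-hydroxylase that opens the alternative route (ENSMUSG00000026170.6, chromosome 1, 74713574 to 74737892, plus strand), was also lower in LKO. It ran from 32.1 FPKM over 118 to 188 in LKO and from 91.8 over 163 to 216 in Flox (log2 fold change -0.52, SE 0.07, adjusted p = 4.68e-09). Of the LKO libraries 44 of 48 lay below the Flox median. It was called lower in 5 of 8 windows, and in 3 of these, CT6 to CT10, CT12 to CT16 and CT42 to CT46, no LKO library reached the lowest Flox library. At CT12 to CT16 the values were 88.2 to 126 FPKM in LKO and 164 to 215 in Flox (-0.75, SE 0.17, adjusted p = 9.34e-04). At CT24 to CT28 the means were 138 ± 22.5 FPKM in LKO and 135 ± 10.6 in Flox (SD, n = 6 each), with a log2 difference of 0.02 (SE 0.17, adjusted p = 0.989).

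Cyp39a1, which 7-alpha-hydroxylates 24-hydroxycholesterol (ENSMUSG00000023963.10, chromosome 17, 43667425 to 43751431, plus strand), was the least abundant of the 10. It ran from 0.353 FPKM over 1.64 to 3.49 in LKO and from 0.935 over 2.29 to 6.07 in Flox (log2 fold change -0.38, SE 0.08, adjusted p = 5.22e-05). Because 1 was added before the logarithm, this understates the change of a gene at such levels. It was called lower at CT0 to CT4, CT6 to CT10, CT12 to CT16 and CT42 to CT46, and the ranges overlapped in all of these windows.

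The balance of the routes at RNA level was described by the log2 ratio of Cyp7a1 + 1 to Cyp7b1 + 1 in each library, with no test. It ran from -5.15 over a median of -2.35 to -0.003 in LKO and from -5.54 over -3.31 to -1.20 in Flox, so that Cyp7b1 was the more abundant of the pair in all 96 libraries. On the first day the mean was -2.42 ± 1.03 in LKO and -2.85 ± 0.94 in Flox, and on the second day -2.08 ± 1.15 and -3.92 ± 0.79 (SD, n = 24 each). The mean difference was thus 0.43 on the first and 1.84 on the second day. At CT0 to CT4 the mean was -3.07 in LKO and -2.56 in Flox, the single window with a lower ratio in LKO. At CT36 to CT40 all 6 LKO libraries (-2.07 to -0.003) lay above all 6 Flox libraries (-3.97 to -2.71), and at CT42 to CT46 the libraries labelled LKO (-2.69 to -0.39) did so too (Flox -4.45 to -2.94).

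**Figure D2:**
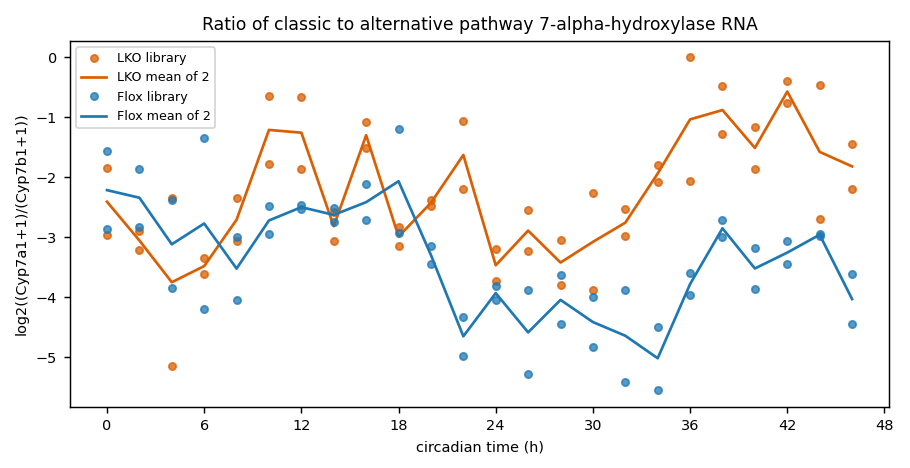
Log2 ratio of (Cyp7a1 + 1) to (Cyp7b1 + 1) FPKM (vertical axis) against circadian time in h (horizontal axis), with 1 point per library and lines through the mean of 2, LKO in orange and Flox in blue. From CT36 on the LKO points lie above the Flox points, with window means of -1.14 in LKO and -3.38 in Flox at CT36 to CT40.

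Hsd3b7 encodes the 3-beta-hydroxy-C27-steroid oxidoreductase that both routes need (ENSMUSG00000042289.11, chromosome 7, 127800604 to 127803802, plus strand). It ran from 31.9 FPKM over 127 to 327 in LKO and from 76.8 over 148 to 239 in Flox, with a log2 difference of -0.33 (SE 0.06, adjusted p = 1.06e-05). On the first day alone the log2 fold change was -0.08 and not called (adjusted p = 0.347). By window Hsd3b7 was called lower at CT6 to CT10 (-0.41, adjusted p = 0.0177, limma), CT30 to CT34 (-0.47, 0.0392) and CT42 to CT46 (-0.56, 5.73e-04). The call at CT6 to CT10 was lost with median-ratio scaling (adjusted p = 0.174) and that at CT30 to CT34 with quantile normalization (0.0812). The difference was largest at CT36 to CT40. There LKO libraries held 59.9 and 31.9 FPKM at CT36, 33.4 and 41.8 at CT38 and 45.1 and 41.6 at CT40. Flox libraries held 93.9 and 81.5 FPKM at CT36, 99.2 and 101 at CT38 and 80.7 and 82.3 at CT40. No LKO library reached the lowest Flox library. LKO over Flox was -1.09 on the log2 scale (SE 0.14, adjusted p = 2.43e-08). At the same clock times of the day before, CT12 to CT16, the means were 105 ± 31.1 FPKM in LKO and 94.2 ± 17.2 in Flox (SD, n = 6 each; log2 fold change 0.12, adjusted p = 0.530).

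The Hsd3b7 promoter is shown beside that of Cyp8b1 because both genes peaked near CT0 to CT3 and Hsd3b7 had the firmest rhythm. None of the 5 motifs was found in it, which says only that those letters are not in this window. It is from GRCm38.p6, chr7:127800359-127800608, plus strand, 5′ to 3′, with no capitals.
Hsd3b7: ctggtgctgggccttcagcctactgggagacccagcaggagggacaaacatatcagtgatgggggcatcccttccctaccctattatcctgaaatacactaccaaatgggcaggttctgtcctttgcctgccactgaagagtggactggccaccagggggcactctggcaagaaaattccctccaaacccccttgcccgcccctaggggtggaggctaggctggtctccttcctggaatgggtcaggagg

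Akr1d1, the delta4-3-ketosteroid 5-beta-reductase that gives the bent ring system of bile acids (ENSMUSG00000038641.12, chromosome 6, 37530173 to 37568815, plus strand), was lower in LKO on the first day. Over both days it ran from 8.37 FPKM over 26.8 to 47.1 in LKO and from 12.7 over 37.2 to 55.4 in Flox (log2 fold change -0.35, SE 0.11, adjusted p = 0.00499). The value stayed near this without the libraries of letter A (-0.36, adjusted p = 0.0667) or of letter B (-0.33, adjusted p = 0.158), which leave 52 and 48 libraries, but the call was lost. With log2 Rn45s as a covariate the value was -0.17 (adjusted p = 0.116). At CT0 to CT4 it held 8.37, 13.2 and 42.6 FPKM (lowest, median, highest) in LKO and 22.9, 44.7 and 49.04 in Flox. The log2 difference was -1.23 (SE 0.24, adjusted p = 1.00e-04), and it was -1.02 at CT6 to CT10 and -0.85 at CT12 to CT16, both called. From CT18 on no window was called, with values between -0.36 and 0.51. This held for the deposited scaling only, since at CT42 to CT46 Akr1d1 was called lower at -1.09 with median-ratio scaling (adjusted p = 7.65e-06), at -0.90 with quantile normalization (adjusted p = 1.22e-04) and at -0.56 with Rn45s (adjusted p = 0.00288). With Rn45s it was also called higher at CT30 to CT34 (0.68, adjusted p = 0.00303). On the second day alone the log2 fold change was 0.12 (adjusted p = 0.355).

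Slc27a5, the bile acyl-CoA synthetase BACS that activates bile acids before conjugation (ENSMUSG00000030382.15, chromosome 7, 12988346 to 12998192, minus strand), was the most abundant of the 10 enzymes. It ran from 35.9 FPKM over 161 to 283 in LKO and from 123 over 244 to 318 in Flox. Of the LKO libraries 44 of 48 lay below the Flox median (log2 fold change -0.64, SE 0.09, adjusted p = 1.53e-08). At CT0 to CT4 LKO libraries held 63.2 and 213 FPKM at CT0, 84.5 and 83.9 at CT2 and 112 and 221 at CT4, and Flox libraries held 257 and 245, 260 and 241, and 237 and 245 at the same times. The Flox livers were nearly alike, and every LKO liver lay below them by a different amount. On the log2 scale the difference was -1.09 (SE 0.21, adjusted p = 1.17e-04), and -0.95 and -1.13 in the following windows up to CT16. It was -0.05 at CT24 to CT28 and -0.01 at CT30 to CT34, neither called.

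Baat, which joins taurine or glycine to the activated bile acid (ENSMUSG00000039653.9, chromosome 4, 49489422 to 49506557, minus strand), was called lower in 6 of 8 windows. It ran from 21.3 FPKM over 70.8 to 109 in LKO and from 64.9 over 92.5 to 131 in Flox, and 42 of 48 LKO libraries lay below the Flox median (log2 fold change -0.50, SE 0.07, adjusted p = 9.38e-09). At CT42 to CT46 the libraries labelled LKO held 21.3, 33.8 and 54.1 FPKM and Flox libraries 64.9, 93.4 and 108 (lowest, median, highest). The log2 difference there was -1.31 (SE 0.15, adjusted p = 7.06e-11). At CT6 to CT10 it was -0.35 with an adjusted p of 0.0496, which 7 other settings moved past the threshold, to between 0.0507 and 0.685.

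Amacr, the racemase that converts the side chain to the form that peroxisomes shorten (ENSMUSG00000022244.7, chromosome 15, 10981756 to 10996626, plus strand), differed least of the called enzymes. It ran from 16.8 FPKM over 36.002 to 53.6 in LKO and from 29.1 over 41.2 to 57.1 in Flox (log2 fold change -0.32, SE 0.05, adjusted p = 1.08e-06). It was called lower in the 3 windows up to CT16 and at CT42 to CT46, where the libraries labelled LKO (19.8 to 23.5 FPKM) all lay below Flox (29.1 to 50.8).

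In terms of level, Slc27a5 was highest in Flox liver at 236 ± 44.1 FPKM. It was followed by Cyp27a1 (160 ± 31.4), Hsd3b7 (150 ± 48.4), Cyp7b1 (141 ± 47.2), Cyp8b1 (115 ± 52.7) and Baat (95.1 ± 14.4), each with its SD over 48 libraries. Slc27a5 stood above Cyp27a1 by more than the SD of either, and the neighbours from Cyp27a1 to Baat did not differ beyond their spread. Amacr (42.2 ± 6.90) and Akr1d1 (34.8 ± 11.3) also overlapped, and Cyp7a1 (13.9 ± 8.05) and Cyp39a1 (2.53 ± 1.10) came last. In LKO liver Hsd3b7 (127 ± 58.2 FPKM) stood above Cyp27a1 (116 ± 37.3), and Baat (69.6 ± 19.96) above Cyp7b1 (67.8 ± 36.2), though none of these pairs differed beyond its spread.

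Over the 8 windows the enzymes differed between genotypes mainly at CT0 to CT16 and again from CT36 on. The number called lower of 10 was 7 at CT0 to CT4, where 41.3% of all entries were lower, 7 at CT6 to CT10 (30.9%) and 8 at CT12 to CT16 (21.2%). Rbbp5 itself was not called at CT0 to CT4. The number was 0 at CT18 to CT22 (0.273% of all entries; Slc27a5, with an unadjusted p of 0.017, was the only one under 0.05). Baat alone was lower at CT24 to CT28 (0.515%) and Hsd3b7 alone at CT30 to CT34 (0.869%). At CT36 to CT40 Cyp27a1, Cyp7b1, Hsd3b7 and Baat were lower (6.00%), and at CT42 to CT46 all but Cyp7a1 and Akr1d1 were (11.1%). With median-ratio scaling and with quantile normalization all 10 were lower at CT42 to CT46, where 38.3% and 41.0% of all entries were, and 7 and 6 were lower at CT36 to CT40 (2122 and 1985 entries were). At CT0 to CT4 these scalings left 5 and 6 enzymes lower (27.6% and 29.1%) and at CT6 to CT10 4 and 7 (28.1% and 28.2%). The single higher call was Cyp7a1 at CT30 to CT34, where 4.87% of all entries were higher.

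The median log2 fold change of the 10 was -0.69, -0.50 and -0.80 in the 3 windows up to CT16, against -0.21, -0.10 and -0.05 over all entries. It was -0.16, -0.17 and -0.06 in the next 3, against 0.00, 0.04 and 0.13. At CT36 to CT40 it was -0.37 and at CT42 to CT46 -0.91, against 0.18 and 0.49 over all entries. With median-ratio scaling the median at CT42 to CT46 was -1.65 for the enzymes and -0.0975 over all entries, and with quantile normalization it was -1.20 and -0.15. The ribosomal RNA precursor Rn45s also differed in the first window, from 447 to 15894 FPKM (median 4317) in LKO and from 817 to 1483 (median 1230) in Flox. With log2 Rn45s as a covariate 30 in place of 36 pairs of enzyme and window were lower, and at CT0 to CT4 Cyp7a1 (adjusted p = 0.158) and Cyp27a1 (0.335) were no longer called. The summed hepatocyte markers differed by -0.03 on the log2 scale at CT0 to CT4 and by -0.71 at CT42 to CT46. The sum at CT0 to CT4 joined markers that went opposite ways. Alb averaged 10137 ± 4591 FPKM in LKO and 13829 ± 1040 in Flox, and Hnf4a 69.5 ± 25.8 and 109 ± 10.4. Ttr averaged 2736 ± 553 FPKM in LKO and 1958 ± 215 in Flox (SD, n = 6 each). The cholangiocyte markers were higher in LKO in every window, by 0.90 to 3.82.

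The window calls also depended on which mice were counted. A model with a time factor and 1 genotype term per window, added after seeing the data, allows a letter to be left out. It called 32 pairs of enzyme and window lower with all libraries, 21 without letter A and 13 without letter B. At CT0 to CT4 none of the 10 enzymes and 0 of all 9901 entries were called without letter A by limma (2 enzymes and 2103 entries had an unadjusted p under 0.05), against 7 enzymes and 4156 entries lower without letter B. The calls of the first window were thus lost without letter A, while the sizes changed to different extents. Slc27a5 was at -0.62 (adjusted p = 0.198) without letter A and at -1.56 (adjusted p = 8.21e-04) without letter B. Cyp27a1 was at 0.17 and -0.998. Cyp39a1 went the other way, at -0.86 (adjusted p = 0.183) and -0.69 (adjusted p = 0.107). Without letter A Amacr was at -0.36 and Baat at -0.42, against -0.54 and -0.57 with all libraries. At CT6 to CT10 the picture turned, with 5 enzymes lower without letter A (34.1% of entries) and 0 without letter B (0 entries, with 1 enzyme and 710 entries at an unadjusted p under 0.05). At CT12 to CT16 4 were lower without letter A (18.5%) and 0 without letter B (0.101%, with 4 enzymes at an unadjusted p under 0.05). Cyp7b1 kept its size there, at -1.36 (adjusted p = 0.0619) and -1.80 (adjusted p = 0.0705). At CT36 to CT40 4 and 2 enzymes were lower (5.38% and 0.475%), and at CT42 to CT46 8 and 4 (9.80% and 5.74%), where Cyp8b1 was at -2.51 without letter A and 0.0443 without letter B.

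**Figure D3:**
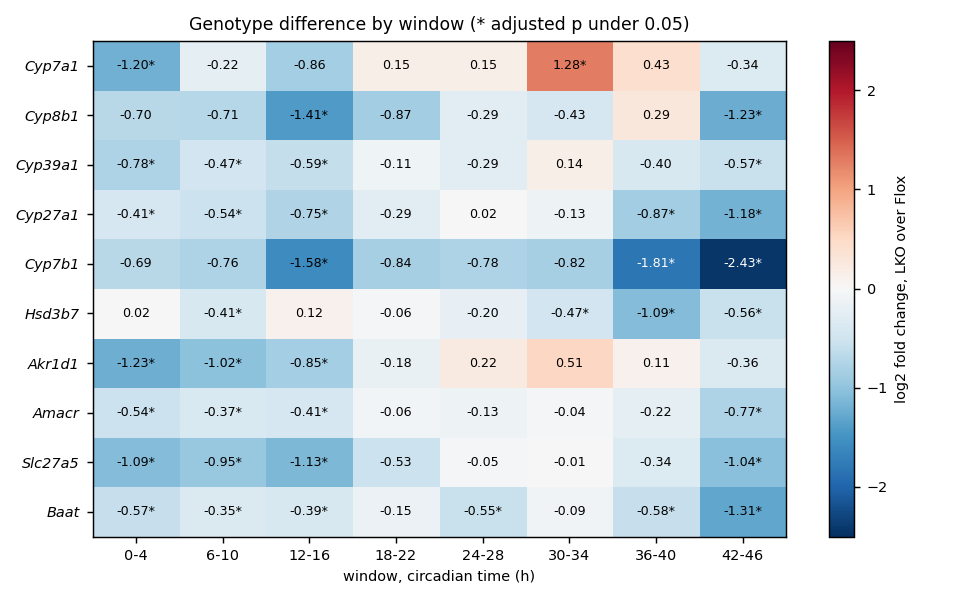
Log2 fold change of LKO over Flox for each enzyme (rows) in each window of 3 time points (columns, circadian time in h), with red higher and blue lower in LKO and an asterisk for an adjusted p under 0.05. Asterisks gather at CT0 to CT16 and at CT36 to CT46, Cyp7b1 is lowest at CT42 to CT46 (-2.43), and Cyp7a1 turns from -1.20 at CT0 to CT4 to 1.28 at CT30 to CT34.

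The genotype difference itself changed between windows for 9 of the 10 enzymes by an F test, beside 81.2% of all entries. Cyp8b1 was the exception (adjusted p = 0.425). Akr1d1 (adjusted p = 1.40e-05) and Hsd3b7 (9.28e-06) changed most. Without the libraries labelled LKO at CT42 to CT46 the F test called 6 of 10 enzymes, beside 5673 of all 9901 entries. Cyp7b1 (adjusted p = 0.132), Amacr (0.143) and Baat (0.0879) were lost. With 1 genotype term per window the F test called 8 of 10 with all libraries, 6 without letter A and 3 without letter B. Of all 9901 entries these fits called 7985, 7343 and 4670, in the same order.

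Between days the difference became more positive for Cyp7a1, Akr1d1 and Slc27a5 (61.7% of all entries did) and more negative for Hsd3b7 and Baat (10.8%). For Cyp7a1 the day means were 11.5 ± 6.16 FPKM in LKO and 17.0 ± 8.53 in Flox on the first day, and 15.4 ± 9.70 and 10.9 ± 6.30 on the second (SD, n = 24 each). LKO over Flox was -0.53 on the log2 scale on the first and 0.38 on the second day, a change of 0.91 (SE 0.29, adjusted p = 0.00439). This change was 0.60 with log2 Rn45s as a covariate (adjusted p = 0.0502), 0.53 with median-ratio scaling (adjusted p = 0.0761) and 0.56 with quantile normalization (adjusted p = 0.0642), none of them called. Without the libraries labelled LKO at CT42 to CT46 the contrast also left out CT18 to CT22 of both genotypes. It then set CT24 to CT40 against CT0 to CT16. In it the changes were 1.38 for Cyp7a1 (adjusted p = 1.38e-04, limma) and 1.32 for Akr1d1 (adjusted p = 9.04e-07), both called. Akr1d1 averaged 25.3 ± 11.2 FPKM in LKO and 41.8 ± 7.93 in Flox on the first day, and 30.5 ± 10.4 and 27.8 ± 9.64 on the second (change 0.94, SE 0.17, adjusted p = 2.56e-06, and 0.53 with median-ratio scaling, adjusted p = 0.00156). With the libraries labelled LKO at CT42 to CT46 counted, the LKO mean of Akr1d1 thus differed little between days, and the Flox mean was lower on the second. By window the LKO means were 20.8, 21.7 and 24.7 FPKM from CT0 to CT16, and 27.9, 31.4 and 42.4 from CT24 to CT40. The Flox means were 41.6, 42.9 and 44.7 FPKM, and 22.2, 22.9 and 39.3. The libraries labelled LKO at CT42 to CT46 averaged 20.3 FPKM, against 33.9 in LKO at CT18 to CT22.

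The changes of Slc27a5 (0.57, SE 0.15, adjusted p = 8.87e-04), Hsd3b7 (-0.50, SE 0.10, adjusted p = 2.49e-05) and Baat (-0.27, SE 0.11, adjusted p = 0.0249) were smaller. With median-ratio scaling that of Slc27a5 was 0.14 and not called (adjusted p = 0.377), while those of Hsd3b7 (-0.93) and Baat (-0.69) were larger. Cyp7b1 was lower on both days, with log2 fold changes of -0.97 and -1.46, whose difference was not called (-0.49, SE 0.30, adjusted p = 0.134). With median-ratio scaling the change was called for Cyp7b1 (-0.91, adjusted p = 0.00666), Cyp27a1 (-0.47, adjusted p = 7.59e-04) and Amacr (-0.36, adjusted p = 2.34e-04). That of Cyp7b1 was -0.99 without letter A (adjusted p = 0.0237) and 0.05 without letter B (adjusted p = 0.913). The contrast without the libraries labelled LKO at CT42 to CT46 set CT24 to CT40 against CT0 to CT16. In it the change of Baat was 0.03 (adjusted p = 0.807, limma). Those of Cyp8b1 (0.80, adjusted p = 0.0382), Cyp39a1 (0.43, 0.0131) and Amacr (0.31, 0.0158) were called. Slc27a5 (0.93, 1.21e-05) and Hsd3b7 (-0.50, 2.7e-04) stayed called. How far the lack of CT18 to CT22 moved these values was not tested. Different mice gave each day, so a day is a repeat of the same clock times in other animals.

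A 24 h rhythm was called for 8 of the 10 enzymes in LKO, where 49.5% of all entries were rhythmic, and for 4 of 10 in Flox, where 27.3% were. The model held 24 h and 12 h cosine waves for each genotype, and an amplitude is the fitted rise above the mean on the log2 scale. The 4 that were called in both were Cyp7a1, Cyp8b1, Hsd3b7 and Amacr. No enzyme had a rhythm that differed between genotypes by the test of the difference (19.9% of all entries did), although Cyp7b1 (adjusted p = 0.0558, unadjusted 0.012) and Cyp27a1 (0.0638, unadjusted 0.015) lay near the threshold. Cyp7b1 passed it in 4 other settings (adjusted p from 0.034 to 0.0484) and Cyp27a1 in 3 (from 0.0247 to 0.0476), and neither did without the libraries labelled LKO at CT42 to CT46 (0.306 and 0.140). A call in LKO and none in Flox therefore does not by itself show a difference of rhythm. Nor does a test that did not pass show that there is none.

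The classic route enzymes peaked at different times of day. Cyp7a1 peaked at CT13.3 ± 0.90 h (SE) in LKO and at CT15.5 ± 0.93 in Flox, with amplitudes of 0.64 and 0.62 (SE 0.15 each). These peaks fall early in the subjective night. Cyp8b1 peaked at CT2.28 ± 0.93 in LKO and CT0.24 ± 0.93 in Flox, with an amplitude of 0.74 (SE 0.18) in both, so that it lay 11.1 h from Cyp7a1 in LKO and 8.77 h in Flox. Hsd3b7 had the largest amplitude in LKO and the smallest p in both genotypes, with 0.78 in LKO (adjusted p = 5.39e-13) and 0.61 in Flox (adjusted p = 5.00e-09; SE 0.08 each). It peaked at CT2.39 ± 0.38 in LKO and CT3.15 ± 0.48 in Flox. Amacr peaked at CT7.30 and CT7.01, with amplitudes of 0.29 and 0.22 (SE 0.06).

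The alternative route had no rhythm that passed in Flox, although Cyp39a1 passed there in 4 other settings (adjusted p from 0.0118 to 0.0403), among them the fit without the libraries labelled LKO at CT42 to CT46. With median-ratio scaling Akr1d1 passed in Flox (adjusted p = 0.0332) and Amacr did not (adjusted p = 0.134). Cyp7b1 had an amplitude of 0.53 (SE 0.15, adjusted p = 0.0113) in LKO with a peak at CT5.97, and 0.26 (SE 0.15, adjusted p = 0.371) in Flox. Cyp27a1 had 0.34 (SE 0.08, adjusted p = 0.00231) in LKO with a peak at CT6.06, and 0.16 (SE 0.08, adjusted p = 0.276) in Flox. These LKO calls, like those of Amacr, Slc27a5 and Baat, rested on the last window. Without the libraries labelled LKO at CT42 to CT46 only 4 enzymes were called in LKO, Cyp7a1, Cyp8b1, Hsd3b7 and Cyp39a1 (adjusted p = 0.016), and the Cyp7b1 amplitude was 0.26 (adjusted p = 0.282).

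**Figure D4:**
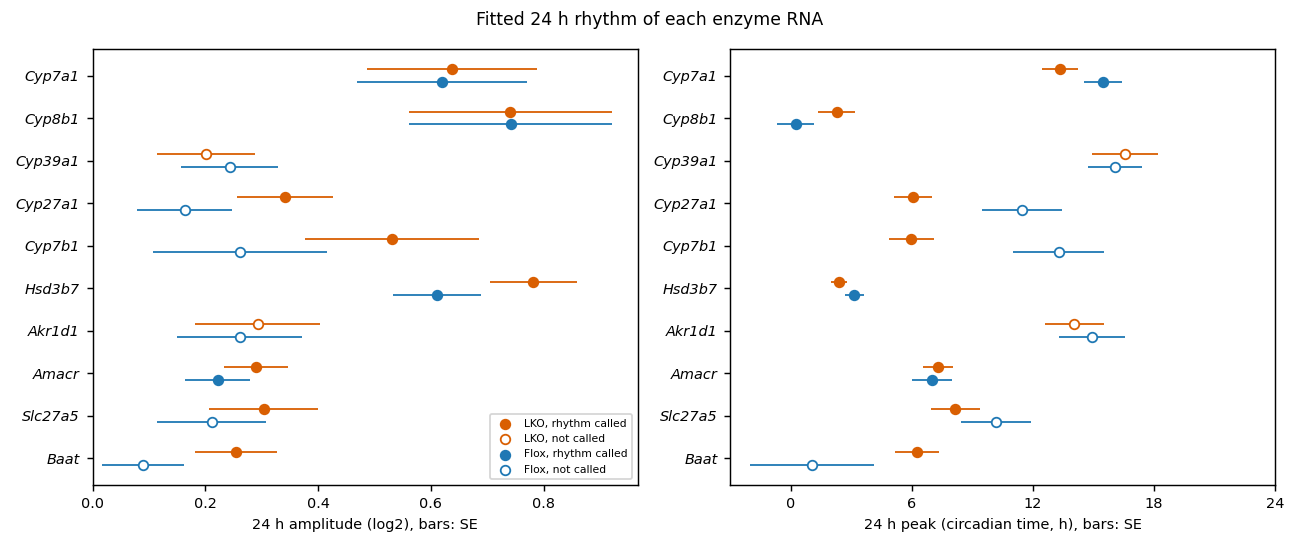
Fitted 24 h amplitude on the log2 scale (left, horizontal axis) and peak in h of circadian time (right, horizontal axis) of each enzyme, LKO in orange above Flox in blue, bars as SE, filled where the rhythm was called and open where it was not. Cyp7a1 peaks at CT13.3 in LKO and CT15.5 in Flox, and Hsd3b7 at CT2.39 and CT3.15.

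A 12 h rhythm was called for 0 of the 10 enzymes in LKO (9.42% of all entries) and for 0 of 10 in Flox (1.78%) by limma. The only unadjusted p under 0.05 was that of Cyp7a1 in Flox (0.0155, amplitude 0.45, SE 0.15, adjusted p = 0.197), and in LKO its 12 h amplitude was 0.24 (SE 0.15, adjusted p = 0.533). With a precision weight for each genotype, Cyp7a1 passed in Flox (adjusted p = 0.049).

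Mice of the same time point differed more from each other in LKO than in Flox for 9 of the 10 enzymes. The same was true of 83.2% of all entries, but the median ratio of the SDs was 2.07 for the enzymes and 1.34 for all entries. Slc27a5 had an SD between the mice of a time point of 0.51 in LKO and 0.16 in Flox on the log2 scale, a ratio of 3.13 that 0.283% of all entries exceeded. Baat had 0.34 in LKO and 0.13 in Flox, Cyp7b1 0.97 and 0.44, and Cyp8b1 1.19 and 0.55. Cyp39a1 did not share this, with 0.342 in LKO and 0.343 in Flox. Without CT42 to CT46 the SD was larger in LKO for all 10 enzymes, with a median ratio of 1.59, and that of Slc27a5 was 4.25. The ratios of Cyp8b1 and Cyp7b1 were then 1.58 and 1.57. The SDs of all entries were not computed without CT42 to CT46, so the 1.59 cannot be set against the 1.34.

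**Figure D5:**
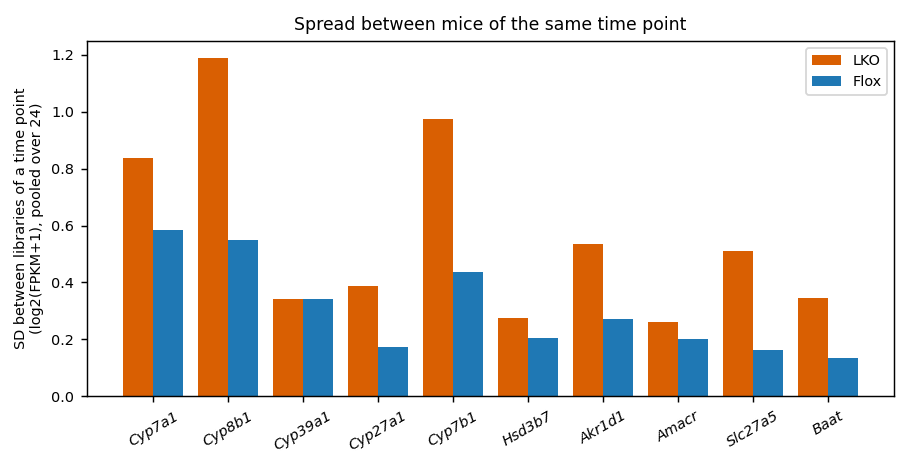
SD between the 2 libraries of a time point on the log2(FPKM + 1) scale, pooled over 24 time points (vertical axis, from 0), for each enzyme, with LKO bars in orange left of Flox bars in blue. LKO bars are taller for all enzymes but Cyp39a1, and the Slc27a5 bars are 0.51 and 0.16.

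Across the 48 libraries of a genotype the enzymes moved together more in LKO than in Flox, as a description: 40 of the 45 pairs had a positive Pearson correlation in LKO and 29 in Flox, with medians of 0.37 and 0.18. Over all pairs of tested entries the medians were 0.21 in LKO and 0.11 in Flox. Without CT42 to CT46, 40 of the 45 pairs were positive in LKO and 26 in Flox, with medians of 0.38 and 0.15, and over all entries 0.20 and 0.04. Libraries of a pair share their time point and their scaling. Cyp27a1 and Baat had a correlation of 0.84 in LKO and 0.34 in Flox, and Cyp27a1 and Cyp7b1 0.68 in LKO and -0.07 in Flox. Without CT42 to CT46 these were 0.58 in LKO and 0.26 in Flox, and 0.46 in LKO and -0.11 in Flox. Cyp7a1 and Akr1d1 moved together in both (0.68 in LKO, 0.71 in Flox), and Cyp7a1 and Hsd3b7 moved apart in both (-0.50 in LKO, -0.38 in Flox).

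Other enzymes of bile acid metabolism were lower as well. Of 12 listed genes 9 were tested, 7 were lower and 0 higher, with a median log2 fold change of -0.35 against 0.07 over all entries, of which 19.1% were lower and 39.4% higher (35.8% and 28.1% after median-ratio scaling). Akr1c6, a hydroxysteroid dehydrogenase, averaged 177 FPKM in LKO and 275 in Flox (log2 fold change -0.73, SE 0.11). Acox2, the oxidase of the branched side chain, averaged 31.3 FPKM in LKO and 46.5 in Flox (-0.63, SE 0.08). Scp2, whose products carry sterols and cleave the side chain, averaged 490.0 and 689.5 FPKM (-0.56, SE 0.08), and Hsd17b4, the peroxisomal bifunctional protein, 44.1 and 56.2 FPKM (-0.34, SE 0.05). All 4 had adjusted p of at most 6.85e-08 by limma. Cyp46a1 and Star were below the filter, Ch25h was not found in the table, and Stard5 and Acot8 were not called.

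Of 21 listed regulators 20 were tested, 11 were lower and 1 higher, beside 19.1% lower and 39.4% higher of all entries, with a median log2 fold change of -0.17. Ppara, the fatty acid receptor, averaged 14.2 FPKM in LKO and 22.6 in Flox (log2 fold change -0.64, SE 0.10, adjusted p = 9.09e-08). Klb, the co-receptor through which FGF15 represses Cyp7a1, averaged 2.36 FPKM in LKO and 3.96 in Flox (-0.58, SE 0.10, adjusted p = 3.12e-06). The single higher gene was Nr1h4, which encodes the bile acid receptor FXR, with 43.9 ± 11.6 FPKM in LKO and 38.8 ± 8.43 in Flox (SD, n = 48 each; 0.16, SE 0.06, adjusted p = 0.0248). It was named after its value was seen, as were the clock genes that follow. Nr0b2, which encodes SHP, averaged 34.4 FPKM in LKO and 33.5 in Flox and was not called (0.07, SE 0.11, adjusted p = 0.584).

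The clock genes known to act on Cyp7a1 kept strong rhythms in both genotypes. Dbp, a D-box activator, had a 24 h amplitude of 3.07 in LKO and 3.18 in Flox, with peaks at CT10.2 and CT10.6. Nr1d1, which encodes the repressor REV-ERB-alpha, had 2.12 and 2.26 with peaks at CT7.46 and CT7.37. Cyp7a1 thus peaked after both in each genotype.

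Enzymes at the 2 ends of the liver lobule were set beside these values, since Cyp7a1, Cyp8b1 and Cyp27a1 are pericentral in mouse liver. Of 9 pericentral markers 8 were tested, 7 were lower and 0 higher (19.1% and 39.4% of all entries), with a median log2 fold change of -0.58. Slc1a2, a glutamate transporter, had the smallest p, at 5.71 ± 4.91 FPKM in LKO and 15.1 ± 3.73 in Flox (SD, n = 48 each; -1.59, SE 0.12, adjusted p = 1.49e-17), followed by Cyp2e1 (-0.90), Oat (-1.08) and Glul (-0.79). Of 9 periportal markers, all tested, 5 were lower and 0 higher (against the same 19.1% and 39.4%), with a median of -0.24. Among these Cps1 had -0.54 (SE 0.13), Hal -0.37 (SE 0.09), Arg1 -0.31 (SE 0.07) and Cyp2f2 -0.28 (SE 0.09). The part of lobular zones in the enzyme values was not tested.

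By Pearson correlation of log2(FPKM + 1) over the 48 Flox libraries, the genes most like Cyp7a1 were Gpt2 and Urad (0.73 each), Akr1d1 (0.71), Homer2 (0.71) and Fgf1 (0.70). In LKO their correlations with Cyp7a1 were 0.74, 0.49, 0.68, 0.79 and 0.43. All 5 were lower in LKO, whereas Cyp7a1 was not called. Fgf1 averaged 11.5 FPKM in LKO and 19.9 in Flox (log2 fold change -0.75, SE 0.07, adjusted p = 5.46e-14). The genes most like Cyp7b1 in Flox were Serpina3k (0.79), C8b (0.77), Lifr (0.76), Hopx (0.68) and Nudt7 (0.65), with 0.88, 0.84, 0.73, 0.62 and 0.72 in LKO. All 5 were lower in LKO, as Cyp7b1 was, with log2 fold changes from -0.46 to -0.73.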

How the data were processed

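RNA of whole liver was sequenced with a stranded mRNA kit, per the labels. The authors deposited 1 table of FPKM values, which they made, per the submitters' processing notes, with FastQC, Trimmomatic, HISAT2 and Cufflinks on mm10. The sources used here do not give their versions, and the unit was read from these tools and the values. FPKM give no counts, so the depth is unknown and no counting interval is given. Totals averaged 389597 ± 35980 FPKM in LKO and 398191 ± 40597 in Flox (SD, n = 48 each). No label of a sequencing batch was used here, and the letters A, B and C name 44, 48 and 4 libraries.

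Values were analysed as log2(FPKM + 1) for entries that averaged 1 FPKM or more over the 96 libraries, which all 10 enzymes passed, in limma 3.58.1 under R 4.3.3 (statmod 1.5.0) with intensity trend and robust moderation. P-values are two-sided or from F tests and were adjusted by Benjamini-Hochberg over all 9901 entries. Models were a time factor with a genotype term, means of 48 genotype and time cells with contrasts for 8 windows and for days, and 24 h and 12 h cosine terms per genotype. The scripts were tested on simulated data. Fold changes are on the log2(FPKM + 1) scale.

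The enzymes, the gene lists and the alternatives were chosen with earlier results of these data known. The genes named are the enzymes, Rbbp5, the 4 tested genes with the smallest p of each list, and the 5 most like Cyp7a1 and Cyp7b1, with exceptions stated. Positions are from GENCODE M21 on mm10 and promoters from RefSeq on GRCm38.p6. Alternatives covered the pseudocount, the filter, scaling, moderation, single libraries and letters, days, Rn45s, a replicate block and genotype weights. The weights, the setting without the library labelled LKO of CT44 with letter B, window tests without the 6 libraries labelled LKO at CT42 to CT46, and the model with 1 genotype term per window were added after seeing the data.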

Additional observations from a re-analysis of the deposited data

Results flagged for a closer look

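Single libraries stood far from the other 5 of their genotype and window in 9 of 160 groups examined, and chance alone gives such a gap in about 1 of 20 groups. The measure was the gap to the nearest library divided by the whole range, against Dixon's limit for 6 libraries. Among LKO libraries Hsd3b7 reached 327.41 FPKM in CT2 with letter B, Akr1d1 was at 30.959 FPKM in CT40 with letter B, and Slc27a5 was at 102.45 FPKM in CT28 with letter A. Slc27a5 was also low, at 35.924 FPKM, in the library labelled LKO of CT44 with letter B, which was the lowest of the libraries labelled LKO for 6 of the 10 enzymes. Among Flox libraries Cyp7a1 was at 4.9293 FPKM in CT46 with letter A, Cyp39a1 at 6.073 FPKM in CT20 with letter B and Akr1d1 at 22.856 FPKM in CT4 with letter B. Amacr was at 48.97 FPKM in the Flox library of CT12 and at 47.004 FPKM in that of CT22, both with letter B. What made these libraries differ was not tested.

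The genotype difference changed between windows by limma's F test for 9 enzymes, beside 81.2% of all entries. The adjusted p was 9.28e-06 for Hsd3b7, 1.4e-05 for Akr1d1, 6.69e-05 for Baat, 0.000238 for Cyp27a1 and 0.00056 for Slc27a5. It was 0.00499 for Cyp7a1, 0.00534 for Amacr, 0.0467 for Cyp39a1 and 0.0477 for Cyp7b1. The log2 difference changed between days by 0.94 for Akr1d1, 0.911 for Cyp7a1, 0.566 for Slc27a5, -0.499 for Hsd3b7 and -0.265 for Baat (second minus first day).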

How the results depend on the processing

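Over 15 alternatives the genotype call of Cyp39a1, Cyp27a1, Cyp7b1, Amacr, Slc27a5 and Baat kept its direction and its side of the threshold. Cyp7a1 had log2 fold changes of -0.29 without letter A, 0.20 without letter B, 0.0896 with Rn45s as a covariate, 0.38 on the second day alone and -0.53 on the first (adjusted p = 0.0282). Akr1d1 had 0.12 on the second day alone, and Cyp8b1 was not called there (adjusted p = 0.149). Entries higher and lower in LKO numbered 2504 and 4366 on the first day alone, and 900 were lower on the second. Lower entries numbered 3540 after median-ratio scaling, 3535 after quantile normalization and 2970 without the libraries labelled LKO at CT42 to CT46. The median of all entries was 0.07, and -0.03 and -0.02 after these scalings. Without a letter, higher entries ran from 2077 to 2774 and lower ones from 788 to 1390, and 8 enzymes were lower in either case. Enzymes with a 24 h rhythm ran from 3 to 4 in LKO and from 1 to 2 in Flox, and entries from 2060 to 2784 and from 595 to 1363. Entries with a 12 h rhythm ran from 0 to 0 in LKO and from 6 to 7 in Flox, and 0 entries (0 to 0) had a different 24 h rhythm. These fits held 52 libraries without letter A and 48 without letter B, and the reason for the lower counts was not tested. With 1 genotype term per window, pairs of enzyme and window numbered 0 higher, and the F test called 4670 entries without letter B and 7343 without letter A.

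Pairs of enzyme and window higher in LKO numbered 0 with a pseudocount of 0.1, 0 after median-ratio scaling, 0 after quantile normalization and 2 with Rn45s. Enzymes with a different 24 h rhythm numbered 3 after median-ratio scaling, 1 after quantile normalization, 2 with Rn45s and 2 with genotype weights. Such entries numbered 969 after median-ratio scaling, 998 after quantile normalization, 1243 without the Flox library of CT42 with letter B, 1154 without the library labelled LKO of CT44 with letter B and 26 without the libraries labelled LKO at CT42 to CT46. Without those 6 libraries 4 enzymes and 2647 entries had a 24 h rhythm in LKO and 4 entries a 12 h rhythm. Entries with a 12 h rhythm in LKO numbered 1481 after quantile normalization, 137 without CT44 letter B and 463 with genotype weights, and in Flox 801 with the weights, with which 4282 had a 24 h rhythm in Flox and 1 enzyme a 12 h rhythm.

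Small window values changed sign, none of them called in either fit, under the following settings. With Rn45s they were 0.17 for Akr1d1 and 0.0711 for Amacr at CT18, 0.00769 for Slc27a5 at CT24, and 0.0263 for Amacr and 0.13 for Slc27a5 at CT30. After median-ratio scaling they were -0.17 for Akr1d1 at CT36 and -0.0756 for Cyp27a1 at CT24. After quantile normalization they were -0.00184 for Hsd3b7 at CT0, 0.0157 for Slc27a5 at CT24, -0.0705 for Cyp39a1 and 0.0525 for Slc27a5 at CT30, and -0.0502 for Akr1d1 at CT36. Cyp7a1 at CT42 was 0.0411 without CT44 letter B. Changes between days were -0.0497 for Amacr with Rn45s, -0.36 for Amacr (adjusted p = 2.34e-04) and -0.0467 for Cyp39a1 after median-ratio scaling, and -0.20 for Amacr (adjusted p = 0.00556) and -0.13 for Cyp39a1 after quantile normalization. They were 0.033 for Baat and 0.24 for Cyp27a1 without the 6 libraries, for CT24 to CT40 against CT0 to CT16. Without CT44 letter B the change of Cyp27a1 was 0.00562. The causes were not tested.

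Without letter A and without letter B, window values were 0.17 and -1.56 for Cyp8b1, 0.17 and -0.998 for Cyp27a1 (called at -0.41 with all libraries), and 0.26 and -0.22 for Hsd3b7 at CT0. They were -0.86 and 0.60 for Cyp7a1 at CT6, and -0.28 and 0.52 for Cyp7a1, -0.27 and 0.18 for Hsd3b7 and -0.20 and 0.10 for Amacr at CT18. At CT24 they were -0.0537 and 0.73 for Cyp7a1, 0.15 and -0.12 for Cyp27a1 and 0.14 and -0.20 for Slc27a5. At CT30 they were -0.10 and 0.0283 for Amacr, 0.0323 and -0.0511 for Slc27a5 and 0.0244 and -0.20 for Baat. At CT36 they were 0.63 and -0.0447 for Cyp8b1, and at CT42 -1.36 and 0.69 for Cyp7a1 and -2.51 and 0.0443 for Cyp8b1 (called at -1.23 with all libraries). Changes between days were -0.21 and 0.12 for Cyp27a1 and -0.99 and 0.05002 for Cyp7b1. Pairs called lower ran from 13 to 21.

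Mice of the same letter and time point were not paired in the main fits, and what they shared beyond the letter is not known from the labels used here. Their deviations in both genotypes had correlations from -0.40 to 0.34 over 20 time points, of which 7 were over 0.1. With the letter and time point as a replicate block 9 enzymes were lower and 0 higher, with 1769 lower and 3632 higher entries, and the log2 fold change was -1.29 for Cyp7b1 and -0.14 for Cyp7a1. Without counts, depth behind low values such as those of Cyp39a1 is unknown.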
